A study of Mus musculus with 4 samples.

Results

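The genes described here carry cytidine analogues into the cell and convert them to the forms that act on nucleic acids. They were 10 of the 36039 genes on the array, chosen by name: the nucleoside carriers Slc29a1, Slc29a2 and Slc28a3, the kinases Uck1, Uck2, Dck and Cmpk1, the deaminase Cda, and the ribonucleotide reductase subunits Rrm1 and Rrm2. Each was read by 1 of the 55681 probes, with 1 spot per array, and each probe was well above background on all 4 arrays. The cells were of the mouse embryonic stem cell line E14Tg2A (strain 129/Ola), which is a single line, and the 4 groups held 1 array each. ES cells were untreated and were taken at day 0 in medium with serum and leukemia inhibitory factor. Epiblast-like aggregates (ELA) had floated for 2 days in minimal medium without serum, with no drug. The treated ELA formed either in 50 nM 5-azacytidine (AZA), a cytidine analogue that traps DNA methyltransferases, or in 100 µM 5-carboxy-8-hydroxyquinoline (CHQ), an inhibitor of histone lysine demethylases. No group carried a transgene by its label, and each array held RNA pooled from 3 experiments, so that the spread between experiments was not measured.

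5-azacytidine is a nucleoside and enters cells through the equilibrative carriers of the Slc29 family and the sodium-coupled, concentrative carriers of the Slc28 family. Uridine-cytidine kinases add the first phosphate, the UMP/CMP kinase Cmpk1 adds the next, and ribonucleotide reductase can turn the diphosphate into its deoxy form, which DNA polymerases use, whereas most of the drug enters RNA. Dck does the first step for deoxycytidine and its analogues, and Cda removes the amino group of cytidine analogues and so inactivates them. In dividing stem cells the same carriers and enzymes salvage the natural nucleosides.

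The results turned on the Slc29 pair and the Uck pair, and the probes that read them are therefore shown by the first 30 of their 60 bases, with the place that the array design gives them in mouse build mm9. The probe for Slc29a1 lay at chr17:45722171-45722230 on the minus strand, that for Slc29a2 at chr19:5031775-5031834 on the plus strand, that for Uck1 at chr2:32110542-32110601 on the minus strand, and that for Uck2 at chr1:169156239-169156298 on the minus strand. Whether these places are coding or untranslated is not given here, because no annotation of mm9 was used.
Slc29a1 probe: cattttactgccttttttatactgacagaa
Slc29a2 probe: ggattcgactgtctatggaagagtaaggcg
Uck1 probe: cttctgctagtgctgggctggttttgttga
Uck2 probe: gtgccaactagtactggtgatgcctaatta

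DNA methyltransferases, which 5-azacytidine traps once it is built into DNA, methylate the cytosine of CpG dinucleotides, and the start regions of the same 4 genes are shown too, with every CpG in capitals. They run from 250 bases before to 50 bases after a start site in RefSeq (mouse build GRCm38.p6), 5′ to 3′ on the gene's strand. Slc29a1 had 8 annotated starts and Uck1 had 2, of which the most upstream are given. The windows are chr17:45599569-45599868 on the minus strand for Slc29a1, chr19:5023756-5024055 on the plus strand for Slc29a2, chr2:32260056-32260355 on the minus strand for Uck1, and chr1:167285078-167285377 on the minus strand for Uck2.
Slc29a1 start: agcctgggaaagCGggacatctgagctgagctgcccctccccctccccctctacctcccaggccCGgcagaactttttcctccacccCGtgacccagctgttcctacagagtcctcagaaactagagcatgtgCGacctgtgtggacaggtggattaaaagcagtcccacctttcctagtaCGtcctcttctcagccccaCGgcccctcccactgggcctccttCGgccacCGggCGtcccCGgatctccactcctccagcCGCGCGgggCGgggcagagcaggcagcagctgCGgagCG
Slc29a2 start: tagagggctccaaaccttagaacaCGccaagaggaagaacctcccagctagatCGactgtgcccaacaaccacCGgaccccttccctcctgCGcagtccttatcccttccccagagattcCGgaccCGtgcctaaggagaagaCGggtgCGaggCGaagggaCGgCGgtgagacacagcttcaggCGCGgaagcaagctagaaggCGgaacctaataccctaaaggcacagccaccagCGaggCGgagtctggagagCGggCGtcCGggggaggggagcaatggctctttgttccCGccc
Uck1 start: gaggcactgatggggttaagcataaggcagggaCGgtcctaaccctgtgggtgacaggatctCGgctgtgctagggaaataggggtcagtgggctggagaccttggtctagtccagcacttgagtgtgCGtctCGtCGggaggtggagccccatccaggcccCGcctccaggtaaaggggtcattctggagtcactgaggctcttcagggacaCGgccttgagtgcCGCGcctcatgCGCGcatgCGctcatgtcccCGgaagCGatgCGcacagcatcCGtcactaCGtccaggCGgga
Uck2 start: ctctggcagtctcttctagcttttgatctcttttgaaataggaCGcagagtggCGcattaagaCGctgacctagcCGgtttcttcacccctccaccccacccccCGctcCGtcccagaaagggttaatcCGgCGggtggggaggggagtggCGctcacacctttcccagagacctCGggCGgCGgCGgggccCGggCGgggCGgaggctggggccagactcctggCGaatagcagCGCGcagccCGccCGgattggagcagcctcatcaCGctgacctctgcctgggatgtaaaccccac

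These windows held 16 CpG for Slc29a1, 20 for Slc29a2, 18 for Uck1 and 22 for Uck2. The median over all 32851 windows of that length was 7, with quartiles of 3 and 20. The other 7 starts of Slc29a1 ranged from 3 to 30 CpG. Among the remaining members, Rrm2 had the most, with 40, a number that 3.91% of all windows reached, while Slc28a3 had 8 and Rrm1 had 9. The letters CCAAT, searched on both strands, were in 5 of the 18 windows of the 10 genes (Slc28a3, Uck2, Rrm1, Rrm2 and the second start of Slc29a1) and in 37.4% of all windows. Methylation was not measured on these arrays, so CpG content is given only as a property of the sequence.

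Levels below are log2 intensities after background correction and quantile normalization over the 4 arrays, and a difference is the level on one array minus that on another. A level of one probe cannot be set against that of another probe. A gene could be called changed in a comparison when at least 1 of the arrays compared showed its probe well above background and the mean of both levels was at least 7.5, and it was called changed when the difference was 1 or more in either direction. Repeat spots of one probe on the same array had a pooled SD of 0.13 to 0.16, from which the technical SD of a difference was 0.19 to 0.22. This spread comes from spots within an array, so it leaves out variation between labellings, hybridisations, slides and cultures. With 1 array per group no p-value was computed. ES and ELA shared 1 slide and the treated ELA shared the other, so drug and slide cannot be told apart in a comparison of treated with untreated ELA. The local background under the members' spots was 51 to 91 on the first slide and 10 to 16 on the second, and 55.1% to 69.2% of gene spots were well above background. Where a gene had more than 1 probe, these disagreed by a median of 0.40 for AZA minus ELA and of 0.16 for CHQ minus AZA. Between bulk arrays, fewer cells of a type and less RNA per cell cannot be told apart.

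**Figure D1:**
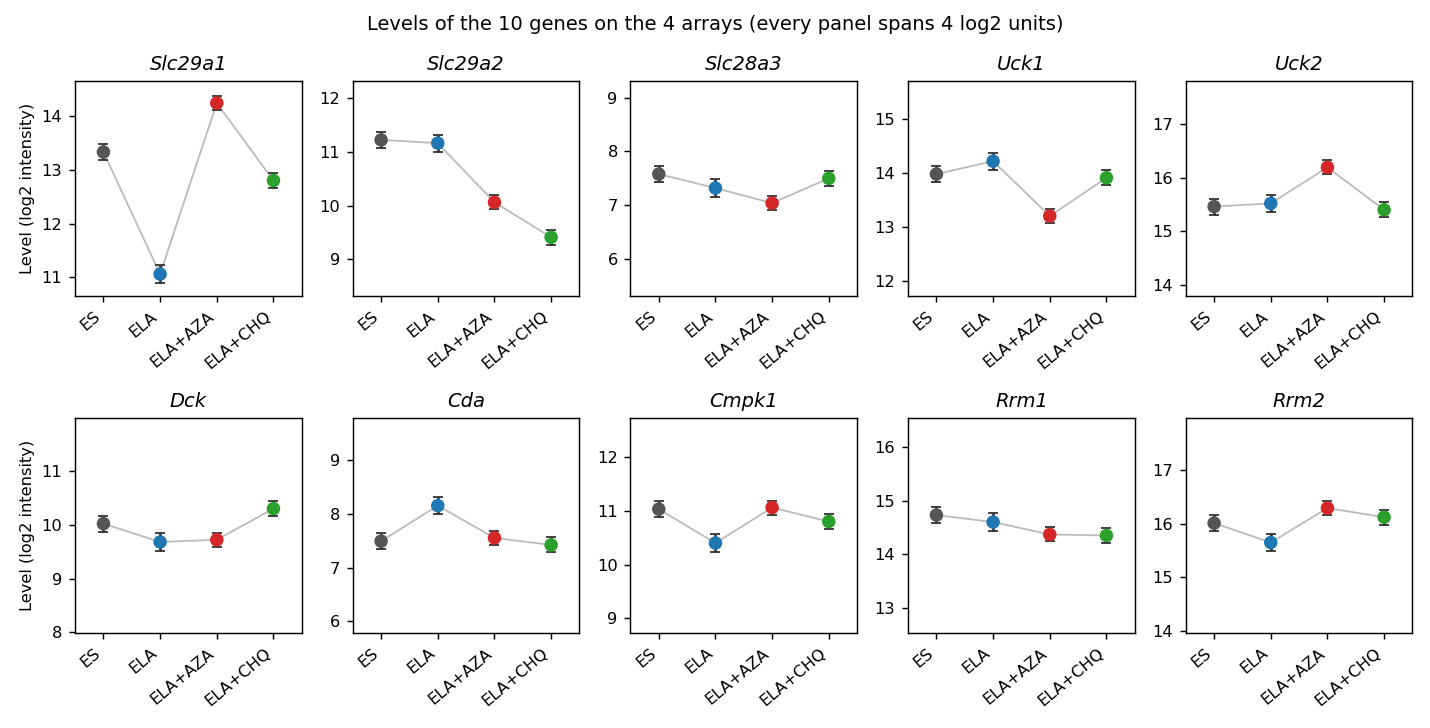
Levels (log2 intensity, y axis) of the 10 genes on the arrays of untreated ES cells, untreated ELA and ELA treated with each drug (x axis), 1 array each, in panels that all span 4 log2 units. Bars show the pooled SD of repeat spots on that array, a technical error, and the lines only join the points. Slc29a1 spans 3.18 log2 units, more than any other of the 10 genes, with its lowest point in untreated ELA.

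Slc29a1, which encodes the main equilibrative nucleoside carrier of most cells, varied most of the 10 genes. Its level was 13.33 in ES cells, 11.06 in ELA, 14.24 with AZA and 12.80 with CHQ. Untreated ELA were thus the lowest and the AZA array the highest. Each neighbouring pair in this order differed by more than the technical SD of a difference. The arrays of each such pair lay on different slides, a source of variation that this SD leaves out. From ES cells to ELA, Slc29a1 fell by 2.27 (4.83-fold lower), and 0.95% of the genes that could be called fell at least as far. ELA with AZA had a level 3.18 above that of untreated ELA (9.08-fold higher), a rise that 1.80% of genes reached. ELA with CHQ had a level 1.74 above untreated ELA (3.35-fold higher), which 7.06% of genes reached. Between the drugs, on the same slide, the CHQ array was 1.44 lower than the AZA array (2.71-fold). Set against ES cells, the AZA array was 0.91 higher and the CHQ array 0.53 lower. Over 7 ways of processing the arrays, the drop from ES cells to ELA ranged from -3.02 to -2.27, the AZA difference from 3.02 to 3.30, the CHQ difference from 1.48 to 1.82 and the difference between the drugs from -1.54 to -1.41, so the direction and the size past 1 were kept in each.

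Slc29a2, the other equilibrative carrier, did not follow Slc29a1. Its level was 11.22 in ES cells and 11.16 in ELA, a difference of -0.06 that lies within the technical SD. ELA with AZA had a level of 10.06 and ELA with CHQ a level of 9.41, so that both treated arrays were below both untreated ones. Slc29a2 fell by 1.10 with AZA (2.14-fold lower) and by 1.75 with CHQ (3.36-fold lower), and 9.57% and 2.82% of genes fell at least as far. The CHQ array was 0.65 lower than the AZA array, short of the threshold. Over the 7 ways of processing, the AZA difference ranged from -1.25 to -1.09 and the CHQ difference from -1.97 to -1.74.

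The contrast within the Slc29 pair does not depend on how far an array as a whole is shifted. Slc29a1 minus Slc29a2 changed by -2.21 from ES to ELA, by 4.28 from ELA to ELA with AZA and by 3.49 from ELA to ELA with CHQ. Between the drug arrays the pair changed by -0.79, which shows that the drop from AZA to CHQ was larger for Slc29a1 than for Slc29a2. Over the 7 ways of processing, the change with AZA lay between 4.18 and 4.55 and that with CHQ between 3.39 and 3.78.

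Slc28a3, a concentrative carrier that takes both purine and pyrimidine nucleosides, was near the lower end of the measured range. Its level was 7.58 in ES cells, 7.32 in ELA, 7.04 with AZA and 7.5 with CHQ, and the mean of both arrays was under 7.5 in each comparison, so it could be called in none. The spot intensity before correction was 197, 143, 80.8 and 138 on those arrays over a local background of 51, 52, 10 and 10. The dimmest spot was that of the AZA array, on the slide with the lower background, and the CHQ difference from ELA went from -0.31 to 0.73 between ways of processing, so that its sign was not kept. The signs of the other 3 differences were kept. On the slide that the drugs shared, the CHQ array was 0.46 above the AZA array, with a range of 0.39 to 1.08.

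Uck1 and Uck2, the kinases that add the first phosphate to cytidine, uridine and 5-azacytidine, differed in how they varied. The level of Uck1 was 13.98 in ES cells, 14.22 in ELA, 13.20 with AZA and 13.91 with CHQ. Of these, the AZA array stood below the other arrays, which lay within 0.32 of one another. Uck1 fell by 1.02 with AZA (2.03-fold lower), just past the threshold, and 10.9% of genes fell at least as far. With CHQ its difference from ELA was -0.32. The CHQ array was 0.71 above the AZA array, and 9.98% of genes were at least that much higher.

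Uck2, which is the more active of the pair on cytidine and uridine and is abundant in embryonic and tumour cells, had a level of 15.46 in ES cells, 15.52 in ELA, 16.19 with AZA and 15.40 with CHQ. Here the AZA array stood above the others, which lay within 0.13 of one another. The difference from ELA was 0.67 with AZA and -0.13 with CHQ, neither past the threshold. The CHQ array was 0.79 below the AZA array, and 7.41% of genes were at least that much lower. The AZA difference of Uck2 was 0.27 when the arrays were scaled to spike-in RNA, so its size depends on the scaling, whereas its sign was kept over the 7 ways of processing.

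Uck2 minus Uck1 changed by 1.69 from ELA to ELA with AZA, with a range of 1.5 to 1.69 over the ways of processing. From the AZA array to the CHQ array it changed by -1.5, with a range of -1.54 to -1.47, and these arrays shared a slide. From ELA to ELA with CHQ it changed by 0.19 and from ES to ELA by -0.18. The unequal change of the Uck pair was therefore large only in the comparisons that hold the AZA array, among the 4 made.

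Dck, which phosphorylates deoxycytidine and deoxycytidine analogues, had a level of 10.02 in ES cells, 9.68 in ELA, 9.72 with AZA and 10.30 with CHQ. ELA and ELA with AZA differed by 0.04, within the technical SD, and the sign of that difference turned with spike-in scaling (-0.04) and in the deposited values (-0.01). The CHQ array was 0.61 above ELA and 0.57 above the AZA array, both short of the threshold. Uck2 minus Dck changed by 0.63 from ELA to ELA with AZA and by -0.74 from ELA to ELA with CHQ.

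Cmpk1, which turns UMP and CMP into diphosphates, had a level of 11.03 in ES cells, 10.40 in ELA, 11.06 with AZA and 10.80 with CHQ. Untreated ELA was the lowest array, and ES cells and ELA with AZA differed by 0.03. ELA differed from ES cells by -0.64, and the treated ELA were above untreated ELA by 0.67 with AZA and 0.41 with CHQ, none past the threshold. With spike-in scaling the difference from ES cells to ELA was -1.23.

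Cda, the deaminase that inactivates cytidine analogues, was the only member besides Slc28a3 near the lower end of the range, and the only one highest in untreated ELA apart from Uck1. Its level was 7.49 in ES cells, 8.15 in ELA, 7.55 with AZA and 7.42 with CHQ. All arrays other than ELA lay within 0.14 of one another, less than the technical SD. ELA was 0.65 above ES cells, and the treated arrays differed from it by -0.59 with AZA and -0.73 with CHQ, none past the threshold. With spike-in scaling the CHQ difference was -1.10 and passed. These signs were kept over the ways of processing, while the size of the difference between ES cells and ELA ran from 0.16 to 1.01. Its mean on the AZA and CHQ arrays was under 7.5, so it could not be called between them.

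Neither reductase subunit was called changed in any of the 4 comparisons. Rrm1, the large catalytic subunit, had a level of 14.73 in ES cells, 14.60 in ELA, 14.37 with AZA and 14.35 with CHQ. These span 0.38, the smallest range among the members. Rrm2, the small subunit whose amount follows S phase, had a level of 16.01 in ES cells, 15.65 in ELA, 16.29 with AZA and 16.12 with CHQ. These span 0.64. ELA differed from ES cells by -0.36, and by -1.08 with spike-in scaling, which is past the threshold. Compared with ELA, the level was 0.64 higher with AZA and 0.47 higher with CHQ, neither past the threshold, and the CHQ difference was -0.01 with 75th-percentile scaling and -0.25 with spike-in scaling. Rrm2 minus Rrm1 changed by 0.86 with AZA and by 0.72 with CHQ, and by -0.22 from ES to ELA. The range over the ways of processing was 0.74 to 0.86 for AZA and 0.49 to 0.73 for CHQ, so the unequal change within the pair was not turned by the scaling.

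**Figure D2:**
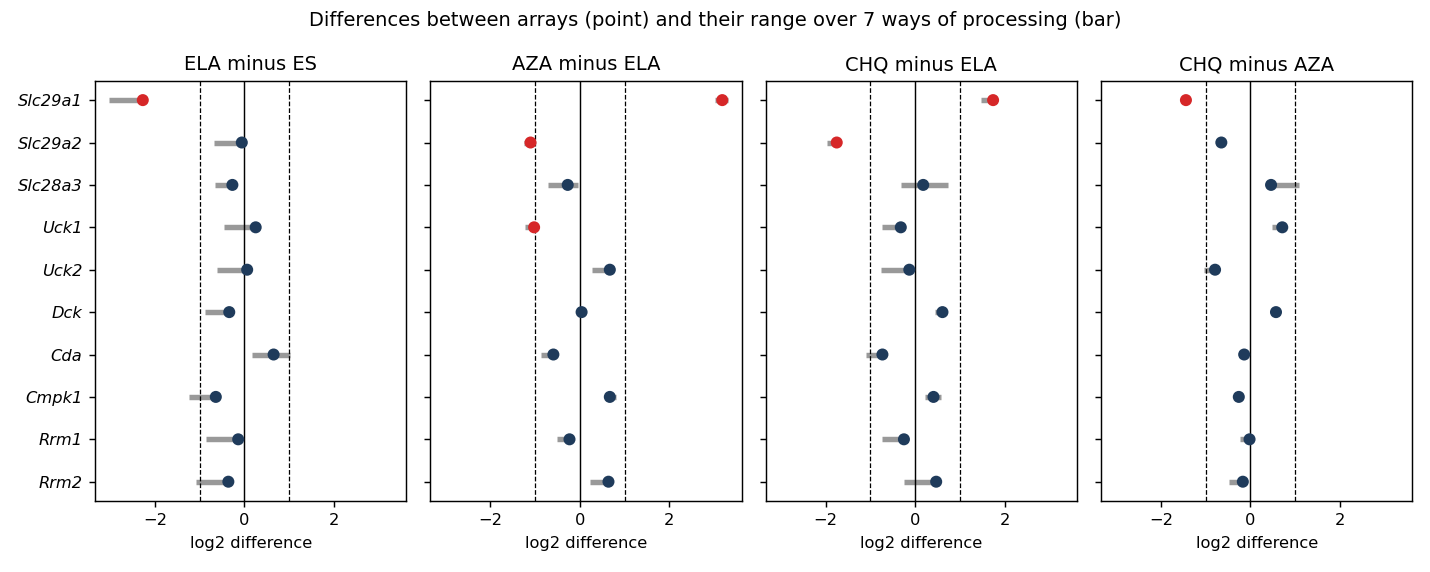
Differences in log2 level (x axis) of the 10 genes (y axis) in the 4 comparisons, with 1 array on each side. Points are the values given in the text (red where the size is 1 or more), grey bars span the lowest and highest value over 7 ways of processing, and dashed lines mark a difference of 1 in either direction. Slc29a1 lies past the dashed lines in every panel, and Slc29a2 and Uck1 lie past them on the lower side with AZA.

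Counted over the genes, 1 of the 9 members that could be called passed the threshold for ELA minus ES, and it was Slc29a1, lower. Of all genes that could be called, 10.0% passed, 4.45% higher and 5.59% lower. The median difference was -0.20 over the members and -0.03 over all genes. For AZA minus ELA, 3 of 9 members passed, Slc29a1 higher and Slc29a2 and Uck1 lower, against 25.6% of all genes, 14.3% higher and 11.4% lower. The median was -0.09 over the members and -0.02 over all genes. For CHQ minus ELA, 2 of 9 passed, Slc29a1 higher and Slc29a2 lower, against 26.6% of all genes, 14.8% higher and 11.9% lower, and the medians were 0.03 and -0.03. For CHQ minus AZA, 1 of 8 passed, Slc29a1 lower, against 10.3% of all genes, 5.53% higher and 4.81% lower, and the medians were -0.15 and -0.03. The members thus passed the threshold about as often as other genes in each comparison, and what set them apart from one another was the direction and size of single genes. The comparisons that hold the untreated ELA array share it, so their values are not independent of one another.

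Of the other nucleoside carriers, 4 were on the array. Slc28a1, a concentrative carrier with a preference for pyrimidine nucleosides, had a level of 12.72 in ES cells, 11.14 in ELA, 12.63 with AZA and 11.11 with CHQ. It fell by 1.58 from ES cells to ELA, rose by 1.48 with AZA, differed by -0.03 with CHQ, and was 1.51 lower on the CHQ array than on the AZA array. Slc28a1 and Slc29a1 were thus both low in untreated ELA and high with AZA, but on the CHQ array Slc28a1 was level with untreated ELA. Slc29a4, a carrier of monoamines and adenosine, rose by 1.72 with AZA and by 2.19 with CHQ, from a level of 12.22 in ELA. Slc28a2, a concentrative carrier with a preference for purine nucleosides, was not well above background in ES cells or ELA. Its level was 6.86 with AZA and 9.88 with CHQ. Set against its own dim signal in ELA, on the other slide, it was 9.92-fold higher with CHQ. That log2 difference ranged from 2.8 to 4.65 over the 7 ways of processing, so its size depends on the processing. Of 5 markers of primitive endoderm, Gata6 and Sox17 were also not well above background in ES cells or ELA, and had levels of 9.89 and 9.51 with CHQ against 8.06 and 7.76 with AZA. Of the others, Gata4 ran from 7.45 to 7.73 over the 4 arrays, Sox7 was not well above background with CHQ, and Dab2 differed by -1.34 with CHQ. The part of such cells in the Slc28a2 value was not tested.

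Among 19 other nucleoside and nucleotide kinases, 3 rose and 3 fell with AZA, 3 rose and 1 fell with CHQ, and 1 rose from ES cells to ELA. Of all genes that could be called, 14.3% rose and 11.4% fell with AZA. With CHQ 14.8% rose and 11.9% fell, and from ES cells to ELA 4.45% rose. Adk, adenosine kinase, had the largest AZA difference of these 19. Its level was 14.39 in ES cells, 14.57 in ELA, 11.10 with AZA and 14.11 with CHQ, so that the AZA array stood alone. It fell by 3.46 with AZA and was 3.0 higher on the CHQ array than on the AZA array, and a further probe of Adk gave -2.84 and 2.44. Ak1, an adenylate kinase, rose by 2.12 with AZA and 2.08 with CHQ, and Nme4, a nucleoside diphosphate kinase, rose by 1.39 and 1.34. Ak4 rose by 1.82 and 1.67, but its further probe differed by 0.16 and 0.17. The thymidine kinase Tk1 differed by 0.24 and -0.09. The median of the list was 0.14 for AZA minus ELA, and it turned to -0.45 with 75th-percentile scaling and -0.43 with spike-in scaling, so no shared direction can be given.

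The enzymes that break down nucleotides and nucleosides split into 2 lists. Of 12 nucleotidases and dNTP-hydrolysing enzymes, none rose in any of the 4 comparisons. Against ELA 11 could be called, of which 2 fell with AZA and 3 with CHQ, beside 11.4% and 11.9% of all genes. Nt5e, the ecto-nucleotidase that releases nucleosides from monophosphates outside the cell, fell by 1.60 with AZA and by 1.24 with CHQ. Dut, which clears dUTP, fell by 1.30 with CHQ. A further probe of the nucleotidase Nt5c3b gave -1.33 with CHQ, where its brightest probe gave -0.48.

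The list of deaminases and catabolic enzymes other than Cda held 13 genes. From ES cells to ELA, 5 of the 10 that could be called fell and none rose, among them Apobec1, a cytidine deaminase that edits RNA (-2.51), Dpys, dihydropyrimidinase (-2.51), and Upp1, uridine phosphorylase (-1.76). With AZA, 4 of 10 rose and none fell, including Dpys by 3.17, Apobec1 by 3.1 and Ada, adenosine deaminase, by 2.81. With CHQ, 5 of 9 rose and none fell, including Apobec1 by 3.26, Ada by 2.79 and Dpys by 1.75. Of all genes that could be called, 5.59% fell from ES cells to ELA, 14.3% rose with AZA and 14.8% rose with CHQ. A further probe of Dpys was not well above background on any array. The median of the list was 0.62 with AZA and 0.35 with CHQ, and the latter turned to -0.06 with spike-in scaling.

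In the list of 9 genes for pyrimidine and thymidylate synthesis and the remaining reductase subunit, 0 of 8 passed from ES cells to ELA, and 0 of 8 passed with CHQ. Of all genes, 10.0% and 26.6% passed in those comparisons. Ctps2, a CTP synthase, was 1.12 higher with CHQ than with AZA, with 0.08 and 1.01 at its further probes. Shmt1, which supplies folate units for thymidylate, differed by -0.09 with AZA and -0.43 with CHQ, but by -1.2 and -1.3 at a further probe. Tyms, thymidylate synthase, ran from 9.19 to 9.44 over the 4 arrays. The median of the list was -0.40 from ES to ELA, -0.38 with AZA and -0.44 with CHQ, and these stayed below 0 over the 7 ways of processing.

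The 6 exporters that can carry nucleoside analogues or other drugs out of cells held the largest rises. Abcb1b, a P-glycoprotein gene, had a level of 11.82 in ES cells, 8.79 in ELA, 13.62 with AZA and 14.77 with CHQ. It fell by 3.03 from ES cells to ELA, and rose by 4.83 with AZA and by 5.98 with CHQ. Abcb1a, its paralogue, whose transcript is near-identical in places so that the probes may share signal, fell by 2.68 and rose by 3.65 and 3.0. Abcc10, a multidrug resistance protein, rose by 1.52 and 1.84. Abcc5, which exports nucleotide analogues, passed with AZA at 1.18, but further probes gave 1.16, 0.12 and 0.24, and the mean over its probes was 0.68, short of the threshold. In all, 4 of 6 rose with AZA, 3 of 6 rose with CHQ and 2 of 6 fell from ES cells to ELA. The shares of all genes were 14.3%, 14.8% and 5.59%.

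Among the 5 DNA and RNA cytosine methyltransferase genes, Dnmt1, the maintenance enzyme, ran from 11.81 to 11.93 over the 4 arrays, within the technical SD. Dnmt3a and Dnmt3b, which set methylation anew, rose by 1.51 and 1.05 from ES cells to ELA and fell by 1.01 and 1.71 with AZA and by 1.21 and 1.05 with CHQ. Dnmt3l, their catalytically inactive partner, moved the other way, with -2.74, 3.11 and 2.16. Trdmt1, the tRNA methyltransferase, differed by no more than 0.40 in the 4 comparisons.

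Over these 7 lists together, 68 genes were measured and 62 could be called in each comparison. Of these 62, 19.4% passed from ES cells to ELA (3 higher and 9 lower), 35.5% with AZA (14 higher and 8 lower), 32.3% with CHQ (14 higher and 6 lower) and 12.9% between the drugs (5 higher and 3 lower). The shares over all genes were lower, at 10.0%, 25.6%, 26.6% and 10.3% in the same order. The lists were chosen with earlier results of these data known, so the higher shares are a description only.

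**Figure D3:**
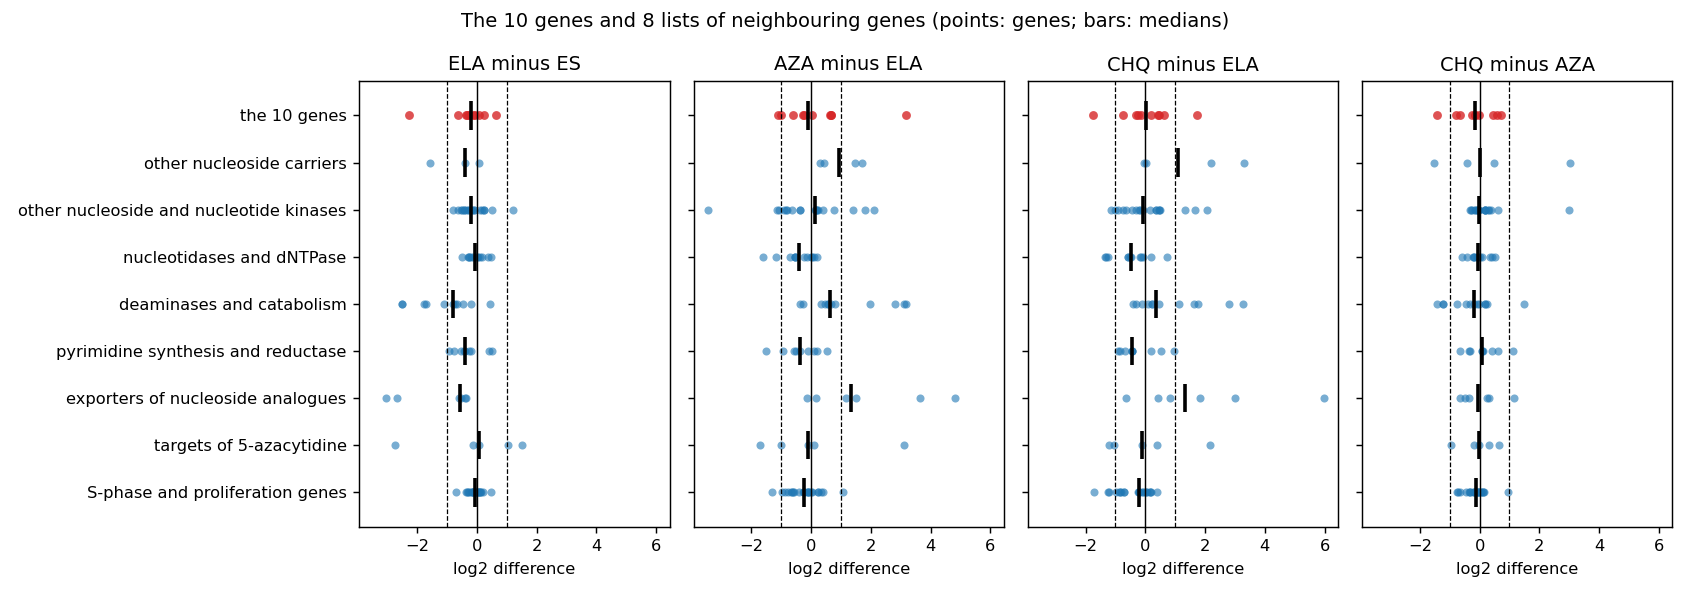
Differences in log2 level (x axis) for the 10 genes (red) and for 8 lists of neighbouring genes (blue, y axis) in the 4 comparisons. Each point is a gene well above background on at least 1 of the 2 arrays, black bars are medians, and dashed lines mark a difference of 1 in either direction. The points at 3 or more on the right belong to Slc29a1, Slc28a2, Adk, Dpys, Apobec1, Dnmt3l, Abcb1a and Abcb1b.

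Since Rrm2, Tk1 and other salvage genes follow the cell cycle, 23 genes of S phase and proliferation were read beside the members. None of the 22 that could be called passed for ELA minus ES, with a median of -0.06. Of all genes, 10.0% passed there, 25.6% with AZA and 26.6% with CHQ. With AZA, Cdc45, a helicase component, fell by 1.31, and with CHQ, Ccne1, Gins2 and Cdc45 fell by 1.71, 1.25 and 1.2. Further probes of 4 genes, well above background on all 4 arrays, also differed by 1 or more with at least 1 drug. They gave -2.13 with AZA and -2.55 with CHQ for Ccne1, -1.68 and -1.82 for Uhrf1, -1.17 and -1.03 for Cdc6, and -0.74 and -1.39 for Chaf1b. The median over the list was -0.22 with either drug, beside differences of 0.64 and 0.47 for Rrm2, and it was -0.56 and -0.90 with spike-in scaling. The 6 MCM helicase genes on the list ran from -0.22 to 0.39 against ELA. The part of proliferation in the members' values was not tested.

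The profile of Slc29a1 was set against those of the 20772 genes that were well above background on all 4 arrays, by the Euclidean distance between log2 levels after each gene's own mean was removed. The nearest were 2410087M07Rik at a distance of 0.03, Mia at 0.17, Cct6b at 0.18, Dpys at 0.21 and Stard8 at 0.34. The level of 2410087M07Rik was 12.25 in ES cells, 9.97 in ELA, 13.15 with AZA and 11.68 with CHQ. Dpys, the dihydropyrimidinase named above, had levels of 12.16, 9.65, 12.81 and 11.40 on the same arrays. With 4 arrays many genes can share such a profile, so these distances are a description only. Among markers of the ground state of pluripotency, Esrrb was at a distance of 0.59 (place 39 of all genes), and Zfp42, Klf4, Nr0b1, Nanog and Fgf4 were at 1.22 to 1.63.

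**Figure D4:**
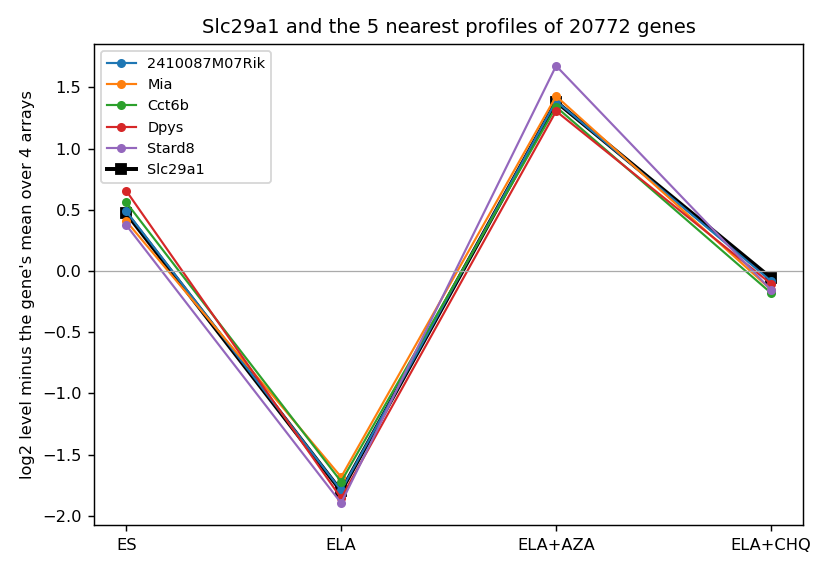
Levels on the 4 arrays (x axis) of Slc29a1 (black) and of the 5 genes with the nearest profiles, each as the log2 level minus that gene's mean over the 4 arrays (y axis). All 6 lines are lowest in untreated ELA and highest with AZA, with CHQ between ELA and ES cells.

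The 6 ground-state markers were read beside Slc29a1. All 6 fell from ES cells to ELA, with a median of -2.94, all 6 rose with AZA, with a median of 3.81, and 5 of 6 rose with CHQ, with a median of 2.70, while Nanog differed by 0.01 with CHQ. Between the drugs, 3 of 6 were lower with CHQ, with a median of -0.90, while Fgf4 differed by 0.62. A further probe of Nanog gave 0.23 from ES cells to ELA, -1.55 with AZA and -1.01 with CHQ. Between the drugs it gave 0.53, where the brightest probe gave -2.85. Fgf5, a marker of primed cells, rose by 2.86 from ES cells to ELA and fell by 2.54 with AZA and by 1.15 with CHQ. Eomes, the other marker of primed cells, differed by 0.56 from ES to ELA, short of the threshold. The general markers Pou5f1 and Sox2 differed by -0.49 and -0.66. In Fgf5 and the brightest probes of the ground-state markers the untreated arrays matched their labels. Eomes was not called, and the further probe of Nanog did not fall. The 5 fibroblast markers shared no direction. Thy1 rose by 1.5 and S100a4 fell by 1.17 from ES cells to ELA, Col1a1 rose by 1.3 and Col1a2 fell by 1.87 with AZA, and Thy1 fell by 2.31 and Col1a2 by 2.0 with CHQ, while Postn was not well above background on any array. The 5 trophoblast markers differed in direction too. Tfap2c, which stem cells also express, fell by 2.86 from ES cells to ELA and rose by 2.11 with AZA and by 3.44 with CHQ, whereas Krt8 fell by 1.8 with AZA and fell by 1.2 with CHQ (-3.0 and -2.42 at a further probe). Hand1 could not be called against ELA, since the mean of both levels was under 7.5, and Cdx2 was well above background only in ES cells. The part of the cells' state in the Slc29a1 values was not tested.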

How the data were processed

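RNA of 4 pools was hybridised in 1 colour (Cy3) to Agilent arrays. The scanner files that the authors deposited hold, per spot, intensity values: the spot's mean, the median of its local background, and a processed signal, none normalised between arrays. Per the file headers, images were read with Feature Extraction 10.7.3.1, while the submitters' processing notes name 9.1. The table of log2 values that the authors deposited was background-corrected and quantile-normalised with limma, and it served as an alternative (r of 0.991 to 0.992 with the values used here).

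Here the mean intensity was corrected with limma 3.58.1 in R 4.3.3 (normexp on the local background, offset 50) and quantile-normalised over 62976 spots per array. Control spots and spots flagged as outliers were then left out, repeat spots were averaged, and 559 probes with no usable spot on some array were dropped. No spot was saturated. The accession of 26582 probes (47.7%) was found in a RefSeq table (GRCm38.p6), which updated their gene names, and members were taken by the array's own gene name. For a gene with several probes the brightest was used. The normalisation was tested by multiplying the real intensities of some probes on the AZA array by known factors. That cannot test a difference between slides or a shift of a whole array. Named genes were all members and, per list and comparison, at most 3 genes per direction with the largest change among those well above background on both arrays, with others named as values. Some genes of the lists that met this rule are not reported here. The 10 members and the lists were chosen with earlier results of these data known. Alternatives were no background correction, an offset of 16, scaling to the 75th percentile or to 6 spike-in probes, the deposited values, the mean over probes, other filters and a threshold of 0.5. The number of arrays limits the precision.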

Additional observations from a re-analysis of the deposited data

How the results depend on the processing

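No paired analysis was possible because each group had 1 array and no test was made. Scaling to the spike-in probes moved the median of all genes, which was -0.03 or -0.02 before, to -0.56 from ES to ELA, -0.36 with AZA, -0.5 with CHQ and -0.17 between the drugs. Under it, 3 members passed for ELA minus ES (Slc29a1, Cmpk1 and Rrm2), beside 4207 genes in place of 1904, 3 passed with CHQ (Slc29a1, Slc29a2 and Cda), beside 34.3% of all genes, and 2 passed for CHQ minus AZA (Slc29a1 and Uck2), beside 10.5%. The median over the members was then -0.77 for ELA minus ES and -0.53 for CHQ minus ELA. With 75th-percentile scaling the median for CHQ minus ELA was -0.26. With a threshold of 0.5, 3 members passed from ES to ELA, 7 with AZA, 4 with CHQ and 5 between the drugs, beside 28.3%, 52.4%, 55.0% and 30.2% of all genes (5353, 10032, 10540 and 5801 genes). The cause of these shifts was not tested, other than that a lower threshold passes more genes by construction. Of 240 member differences over 6 alternatives, 45 moved by more than the technical SD, 27 of them with spike-in scaling and 13 with the 75th percentile, and none of the called differences changed sign. The AZA difference of Uck1 (-1.02) was just past the threshold, and its range over the alternatives was -1.23 to -1.02. Signal over background limits Slc28a3 and Cda most.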
